A study of Mus musculus with 10 samples.

Results

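The matrix metalloproteinases (MMPs), the ADAMTS proteases and the tissue inhibitors of metalloproteinases (TIMPs) were followed in mouse veins that drain an arteriovenous fistula, its outflow vein. Members were the protein-coding genes of the deposited table whose names were Mmp, Adamts or Timp followed by their number. The rule found 46 genes of 43346 in the table, of which 23 were MMPs, 19 ADAMTS proteases and 4 TIMPs. Such a fistula sends arterial blood straight into a vein, as is done surgically to give access for haemodialysis, and the wall of the vein is rebuilt under arterial flow. The antibody group had 5 libraries and the vehicle group 5. Antibody-treated mice received an antibody at 30 mg/kg into the peritoneum 2 times per week, and vehicle-treated mice received the same volume of vehicle on that schedule. All mice, vehicle included, carried a human CX3CR1 knock-in on a strain given as C57, had chronic kidney disease for 28 days before the carotid artery and jugular vein were joined, and gave the vein on day 7. Human CX3CR1 is the antibody's target in the treatment text, whereas the series title gives fractalkine, the ligand of that receptor, so the labels do not settle the target. Ages are not given in the labels, nor is a separate animal stated for each library, so p-values measure the spread between these libraries, which may be technical.

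MMPs are zinc proteases that are made as inactive precursors and together can cleave most components of the extracellular matrix. ADAMTS proteases are secreted relatives with thrombospondin repeats that act on narrower sets of targets, among them large proteoglycans, procollagens and von Willebrand factor. TIMPs bind the active site of MMPs, and TIMP3 also inhibits some ADAMTS proteases. TIMP2 in addition takes part in the activation of proMMP2 at the cell surface. In blood vessels this system takes part in the movement of smooth muscle cells, the turnover of elastin and collagen and the outward remodelling of veins under arterial pressure.

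Depth, as reads summed over all genes, ran from 4282872 in antibody replicate 3 to 34271554 in vehicle replicate 4. It was lower in the antibody group, with a median of 12467973 reads against 20916617 in the vehicle group. With 3 reads as the limit for a gene with none, the ceiling lay between 0.0875 and 0.70 CPM, depending on the library, counting error alone considered (CPM scales reads to a common library total). Markers of the labelled tissue were found in every library: the smooth muscle genes Acta2 and Myh11 had lowest values of 119 and 23.9 RPKM, and the endothelial genes Pecam1 and Cdh5 of 35.4 and 44.6 RPKM. Marker transcripts of other tissues were present in unequal amounts. The summed level of 10 skeletal muscle markers ran from 346 to 3574 RPKM in antibody and from 623 to 6318 RPKM in vehicle libraries, and that of 10 kidney markers from 3.62 to 65.0 RPKM in antibody and from 6.19 to 59.4 RPKM in vehicle libraries. The kidney transcript Kap was highest in antibody replicates 2 and 4 and vehicle replicates 1 and 5. Skeletal muscle markers were highest in antibody replicate 5 and vehicle replicates 4 and 5. The part of these tissues in the results was not tested. Results without the 4 libraries highest in Kap, given below, were chosen by a kidney transcript. They keep antibody replicate 5 and vehicle replicate 4, so they do not address skeletal muscle.

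Transcripts of this system were dominated by a few members in every library. Levels are given as RPKM, reads scaled to gene length and library total, after a further scaling for library composition, and values are listed in the order of replicates 1 to 5. Mmp2 and Mmp14 together made up 74.6% ± 3.06 of the summed MMP level in antibody and 77.6% ± 1.54 in vehicle veins (SD, n = 5 each), and with Mmp3 the share was 86.1% ± 2.65 in antibody and 85.8% ± 1.91 in vehicle veins. Over all 10 libraries 3 members averaged at least 100 RPKM, namely Mmp2, Mmp14 and Timp2, and 16 averaged at least 10 RPKM. At the other end, 7 members had too few reads to be tested.

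**Figure D1:**
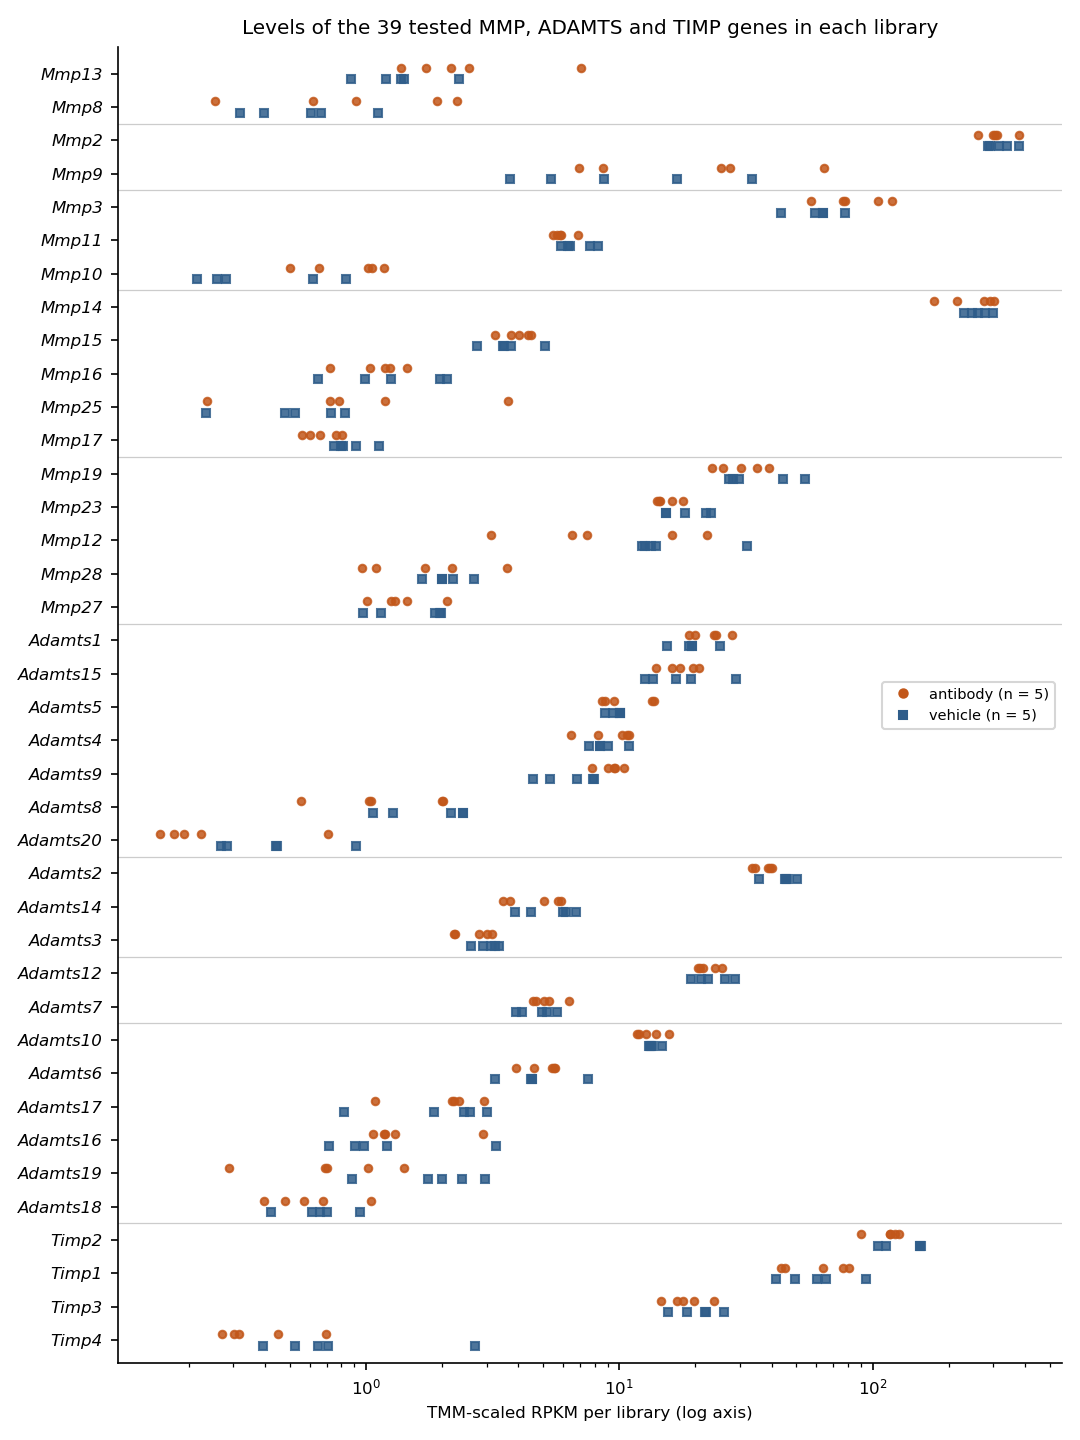
Level of each tested member in each library (x axis, TMM-scaled RPKM on a log axis), with genes down the page in role order, collagenases at the top and TIMPs at the bottom. Circles are the 5 antibody and squares the 5 vehicle libraries; Mmp2 and Mmp14 lie at 174 to 379 RPKM, and the groups overlap for each of the 39 genes.

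The comparison posed by the design was antibody against vehicle. No member differed between the groups at an adjusted p below 0.05. The test by limma on log2(RPKM + 0.5) was fitted over all 17859 genes that passed a filter on low values, of which 0 (0.0%) were called, and 39 of the 46 members were among those genes. The smallest adjusted p of a member was 0.739. At an unadjusted p below 0.05 there were 5 of 39 members (12.8%), beside 1166 of all genes tested (6.53%). By limma-voom, a second test made on whole reads, 0 of all genes and 0 members were called, and 1061 genes and 4 members were below an unadjusted 0.05. Higher in antibody veins among the 5 were Adamts9, Mmp10 and Mmp3, beside 3.55% of all genes in that direction, and lower were Adamts19 and Adamts2, beside 2.98%. The groups overlapped for each of the 39 members, whereas 1.11% of all genes tested did not overlap. The count of 5 became 3 without vehicle replicate 5, with 2 higher and 1 lower, beside 4.69% of all genes. It was 3 with quality weights on the libraries, beside 7.11% of all genes. Without the 4 libraries highest in Kap it was 6, beside 3.2% of all genes, where Adamts2 was no longer below 0.05, Mmp11 and Timp3 were, and the other 4 stayed.

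The direction was mixed in both protease families. Of the tested members, 7 of 17 MMPs, 8 of 18 ADAMTS proteases and 1 of 4 TIMPs had a log2 difference above 0, beside 48.8% of all genes. The median log2 difference was -0.09 for the MMPs, -0.02 for the ADAMTS proteases and -0.19 for the TIMPs, and -0.01 for all genes tested. Scaling by library totals alone moved the median of all genes to 0.06 and that of the tested proteases, -0.05 here, to 0.032. A lower level in such bulk tissue can come from fewer cells of a type or from less RNA per cell, which cannot be told apart here.

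**Figure D2:**
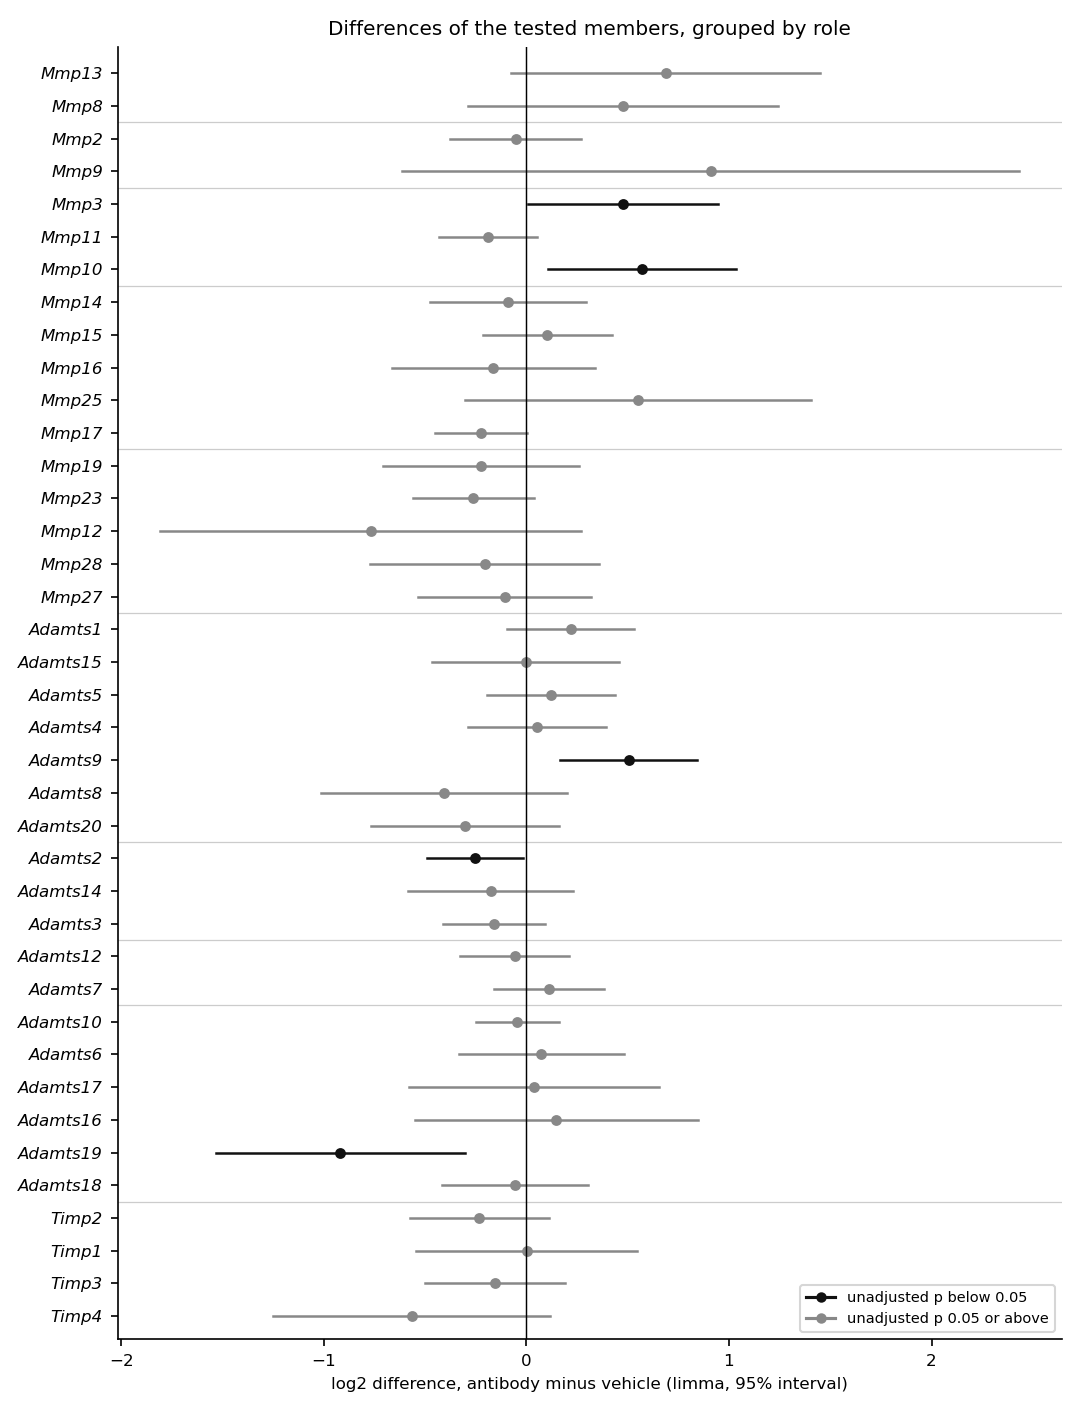
Log2 difference, antibody minus vehicle, of each tested member with its 95% interval from limma (x axis), genes down the page in role order with lines between roles. Dark points are the 5 members with an unadjusted p below 0.05; the intervals of all others include 0, and no member passed after adjustment.

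Among the collagenases, which cut fibrillar collagen across its triple helix, Mmp13 and Mmp8 were measurable and both averaged higher in antibody veins without passing. Mmp13, the main interstitial collagenase of rodents (chromosome 9, 7272514 to 7283333, mm10), stood at 7.04, 1.72, 2.18, 1.38 and 2.56 RPKM in antibody veins and 1.42, 1.38, 2.32, 1.2 and 0.876 RPKM in vehicle veins. Antibody replicate 1 was well above all others and the remaining values of both groups were interleaved. The means were 2.98 ± 2.32 in antibody and 1.44 ± 0.539 RPKM in vehicle veins, giving a log2 difference of 0.69 (standard error 0.34, limma adjusted p = 0.739), which was 0.36 without antibody replicate 1. Mmp8, the collagenase of neutrophil granules, stood at 0.917, 1.92, 2.28, 0.254 and 0.617 RPKM in antibody veins and 0.396, 1.12, 0.607, 0.666 and 0.318 RPKM in vehicle veins. Its highest values were in antibody replicates 2 and 3 and its lowest in antibody replicate 4, so the antibody range enclosed the vehicle range. Mmp1a and Mmp1b, the mouse relatives of human MMP1, totalled 35 and 8 reads over all libraries and were not tested.

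The stromelysins Mmp3 and Mmp10 were the MMPs with an unadjusted p below 0.05. Mmp3, which degrades several matrix proteins and can activate other MMPs (chromosome 9, 7445822 to 7455972), stood at 119, 57.2, 78.1, 76.5 and 105 RPKM in antibody veins and 77.6, 43.4, 63.8, 59.2 and 63.7 RPKM in vehicle veins. Antibody replicates 1, 3 and 5 exceeded every vehicle value, while antibody replicate 2 was below all vehicle libraries but replicate 2. The means were 87.2 ± 24.7 in antibody and 61.5 ± 12.3 RPKM in vehicle veins (SD, n = 5 each), a log2 difference of 0.48 (standard error 0.21, 95% interval 1.01-fold to 1.93-fold, adjusted p by limma = 0.739, exact two-sided permutation p = 0.0952). Its unadjusted p stayed below 0.05 without antibody replicate 2 or vehicle replicate 1, and not without any other single library. Mmp10, a close relative with similar targets, stood at 1.06, 0.502, 0.651, 1.18 and 1.02 RPKM in antibody veins and 0.833, 0.217, 0.280, 0.617 and 0.259 RPKM in vehicle veins, resting on 4 to 39 reads per library. Its 3 highest values were all in antibody veins and its 3 lowest all in vehicle veins. It passed the filter with every antibody library at 0.513 CPM or more, while vehicle replicates 2, 3 and 5 were below that. With the stricter filter, which asks this of all libraries, Mmp10 was not tested, so its place among these members depends on the filter. The log2 difference of Mmp10 was 0.57 (SE 0.21, limma adjusted p = 0.739, exact permutation p = 0.0397), and 0.94 with a pseudocount of 0.1 and 0.39 with a pseudocount of 1. Its unadjusted limma p was 0.0513 without vehicle replicate 2 and 0.109 with quality weights. Mmp11, which unlike most secreted MMPs is activated inside the cell by furin, stood at 5.66, 5.84, 5.92, 6.88 and 5.48 RPKM in antibody veins and 5.87, 7.68, 8.27, 6.29 and 6.38 RPKM in vehicle veins, giving a log2 difference of -0.19 (standard error 0.11).

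Mmp3, Mmp10 and Mmp13 belong to a run of 10 neighbouring MMP genes on chromosome 9, between 7272514 and 7699585, and 6 of the 10 were tested. Of these, Mmp13, Mmp3, Mmp10 and Mmp8 had positive and Mmp12 and Mmp27 negative log2 differences, with a median of 0.48. The 150 bases before the start of Mmp3, Mmp10 and Mmp13 are shown. These neighbours were chosen for having the same sign and a promoter match to the AP-1 motif, so their agreement follows from the choice. The motif (TGANTCA, searched on both strands, where it reads the same) is printed in capitals, in RefSeq's GRCm38.p6 on the plus strand.
Mmp3, chr9:7445672-7445821: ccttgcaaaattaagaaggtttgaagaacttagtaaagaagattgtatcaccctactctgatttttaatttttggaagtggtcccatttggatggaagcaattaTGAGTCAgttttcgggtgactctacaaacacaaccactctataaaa
Mmp10, chr9:7502192-7502341: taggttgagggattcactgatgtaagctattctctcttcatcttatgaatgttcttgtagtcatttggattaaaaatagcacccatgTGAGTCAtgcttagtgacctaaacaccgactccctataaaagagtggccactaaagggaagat
Mmp13, chr9:7272364-7272513: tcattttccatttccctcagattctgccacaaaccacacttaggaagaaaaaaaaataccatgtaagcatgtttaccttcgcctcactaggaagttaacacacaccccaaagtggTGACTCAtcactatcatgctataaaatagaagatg
The motif begins 46 bases before the start in Mmp3, 63 in Mmp10 and 35 in Mmp13. AP-1 is the factor formed by Fos and Jun proteins. In the 250 bases before a start, the motif was found in 8 of the 32 members with a promoter in the table (25.0%), namely Mmp1a, Mmp1b, Mmp3, Mmp7, Mmp10, Mmp12, Mmp13 and Mmp20, all in the chromosome 9 run. The share over all genes with a promoter window was 7.82%, but the 8 members are neighbours of a single family and not independent of each other. Of them Mmp1a, Mmp1b, Mmp7 and Mmp20 were not tested for a difference. Mmp8, a neighbour whose difference was also positive, had no match. Such a match describes the sequence and not binding, and Mmp12, which has the motif before one of its annotated starts, had a negative difference.

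The gelatinases contrasted in level and in spread. Mmp2, a gelatinase made chiefly by stromal cells (chromosome 8, 92827328 to 92853417), was the most abundant member at 310.1, 298, 262, 304 and 379 RPKM in antibody veins and 339, 291, 377, 286 and 315 RPKM in vehicle veins. Both groups covered the same range, with means of 311 ± 42.5 in antibody and 322 ± 37.6 RPKM in vehicle veins and a log2 difference of -0.05 (standard error 0.15, 95% interval 0.771-fold to 1.2-fold). Mmp9, the gelatinase that neutrophils store in granules and macrophages secrete (chromosome 2, 164940780 to 164955850), stood at 25.2, 27.4, 64.1, 6.95 and 8.64 RPKM in antibody veins and 3.72, 17, 8.67, 33.5 and 5.39 RPKM in vehicle veins. The values varied widely within each group, with a standard deviation of 86.9% of the mean in antibody and 89.5% in vehicle veins, against 13.7% and 11.7% for Mmp2. The log2 difference of Mmp9 was 0.91 (standard error 0.69, 95% interval 0.653-fold to 5.40-fold, adjusted p by limma = 0.786), and it ran from 0.49 to 1.33 when single libraries were left out.

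Membrane-type MMPs act at the cell surface. Mmp14, which activates proMMP2 (chromosome 14, 54431604 to 54441258), stood at 289.7, 302, 275, 215 and 174 RPKM in antibody veins and 277, 261, 299, 229.9 and 248 RPKM in vehicle veins. Antibody replicates 4 and 5 were the lowest of the 10, and the other antibody values overlapped the vehicle values (log2 difference -0.09, SE 0.17, 95% interval 0.720-fold to 1.23-fold). Mmp15 stood at 3.23, 4.5, 4.02, 3.76 and 4.38 RPKM in antibody veins and 3.48, 2.74, 3.73, 5.08 and 3.52 RPKM in vehicle veins, where replicate 4 was the highest of the 10. Mmp16 stood at 1.25, 1.46, 0.724, 1.19 and 1.04 RPKM in antibody veins and 2.09, 0.651, 1.96, 1.26 and 0.992 RPKM in vehicle veins, so the vehicle range enclosed the antibody range. Mmp17, anchored to the membrane by a lipid, stood at 0.658, 0.808, 0.764, 0.604 and 0.562 RPKM in antibody veins and 0.815, 1.12, 0.797, 0.75 and 0.914 RPKM in vehicle veins. Its antibody values were low, with 3 of the 5 below the lowest vehicle value, and the log2 difference was -0.23 (SE 0.10, limma adjusted p = 0.739, exact permutation p = 0.0476). Mmp25, a leukocyte enzyme, stood at 3.65, 0.783, 1.2, 0.725 and 0.236 RPKM in antibody veins and 0.728, 0.235, 0.480, 0.527 and 0.827 RPKM in vehicle veins, and antibody replicate 1 alone lay far above the rest. Mmp24, known mainly from the nervous system, totalled 88 reads and was not tested.

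All 5 tested members outside these classes had negative log2 differences, from -0.77 to -0.11, and none passed. Mmp12, the elastase of macrophages (chromosome 9, 7344381 to 7369499), stood at 22.2, 16.2, 7.46, 6.52 and 3.13 RPKM in antibody veins and 32.1, 12.6, 14.0, 12.3 and 13.3 RPKM in vehicle veins. Vehicle replicate 1 was the highest, the other 4 vehicle libraries lay close together, and antibody replicates 3, 4 and 5 were below all of them. The log2 difference was -0.77 (standard error 0.47, 95% interval 0.286-fold to 1.21-fold, adjusted p by limma = 0.771), and it was -0.42 without antibody replicate 5. Mmp19 stood at 35.1, 30.4, 23.2, 25.7 and 38.9 RPKM in antibody veins and 29.6, 54.1, 44.4, 28.1 and 27.0 RPKM in vehicle veins, where replicates 2 and 3 were highest. Mmp23, a membrane-tethered member with an unusual cysteine-rich end, stood at 14.6, 17.9, 16.2, 14.4 and 14.1 RPKM in antibody veins and 18.2, 15.2, 22.0, 15.3 and 23.1 RPKM in vehicle veins, with the 3 highest values in vehicle (log2 difference -0.26, SE 0.13). Mmp28 averaged 1.91 ± 1.06 RPKM in antibody veins and 2.11 ± 0.370 RPKM in vehicle veins, and Mmp27 1.43 ± 0.406 in antibody and 1.59 ± 0.488 RPKM in vehicle veins. Mmp7, the matrilysin of epithelia, totalled 11 reads, Mmp20, the enamel protease, 36 and Mmp21 44, and these were not tested.

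Of the proteoglycan-cleaving ADAMTS proteases all 7 were tested, 4 with positive and 3 with negative log2 differences. Adamts9, which cleaves versican and aggrecan (chromosome 6, 92772699 to 92943492), stood at 10.5, 9.56, 9.6, 7.84 and 9.03 RPKM in antibody veins and 5.32, 6.81, 7.97, 7.90 and 4.58 RPKM in vehicle veins. Antibody replicates 1, 2, 3 and 5 were above every vehicle library, and antibody replicate 4 was just below vehicle replicates 3 and 4. The means were 9.30 ± 0.970 in antibody and 6.52 ± 1.53 RPKM in vehicle veins (SD, n = 5 each), a log2 difference of 0.51 (standard error 0.15, 95% interval 1.12-fold to 1.80-fold, adjusted p by limma = 0.739, exact permutation p = 0.0238). It stayed between 0.40 and 0.58 with single libraries left out, and its unadjusted p was below 0.05 in the reported fit and in each of the 20 other settings. Its span overlaps 3 other annotated genes, as does that of Adamts2. In all, 19 of the 46 members overlap another annotated gene, among them Mmp12, Mmp19, Adamts4, Adamts7 and all 4 TIMPs, and reads of such genes cannot be told apart if strand was not used.

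**Figure D3:**
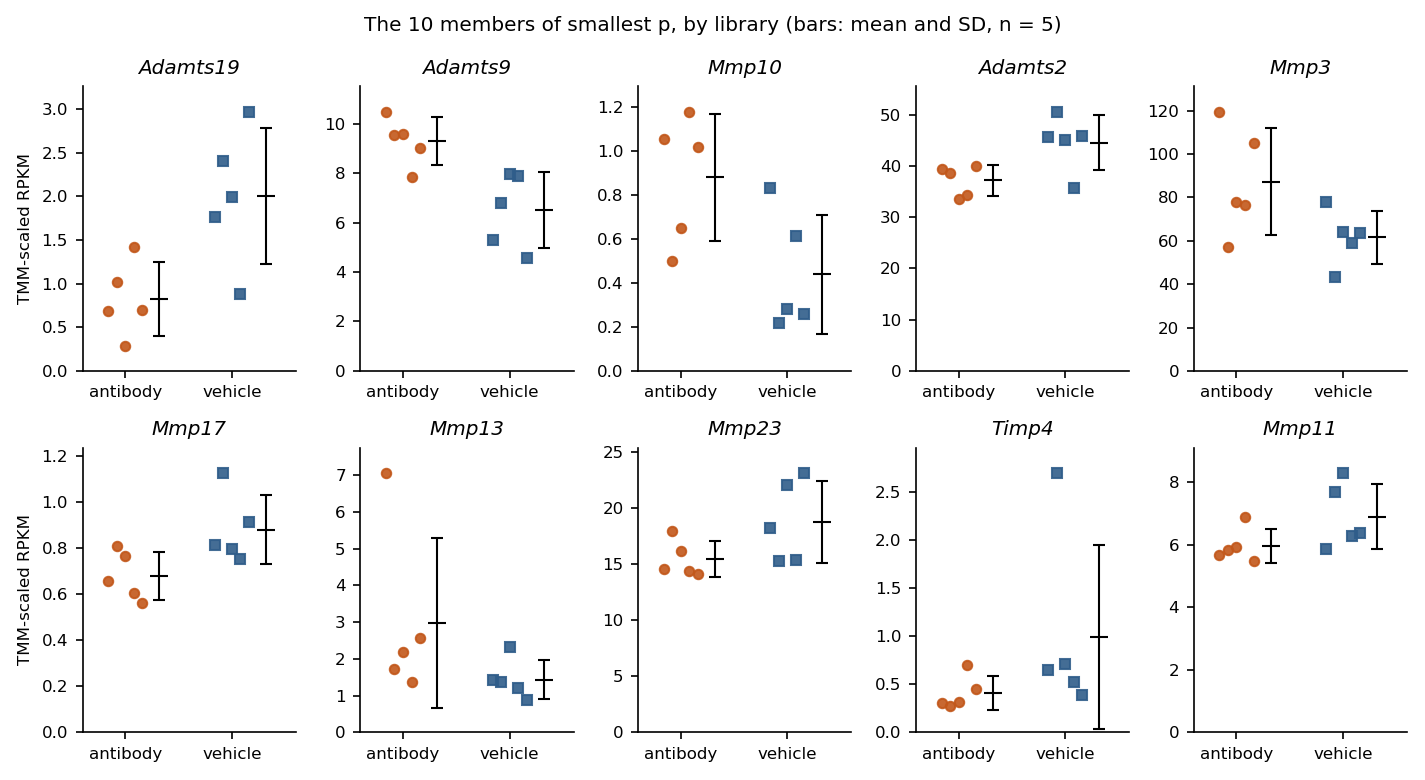
TMM-scaled RPKM (y axis, from 0) in each library for the 10 members of smallest unadjusted p, antibody libraries left and vehicle libraries right in each panel, with mean and SD beside the points. In Adamts9 all but 1 antibody library lie above the vehicle range, while in Mmp13 and Timp4 a single library of 7.04 and 2.70 RPKM sets the mean of its group.

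Adamts1, a versican-cleaving enzyme, stood at 28.0, 24.1, 18.9, 19.9 and 23.6 RPKM in antibody veins and 18.9, 25.1, 19.4, 15.5 and 19.4 RPKM in vehicle veins, with antibody replicate 1 highest (log2 difference 0.22, SE 0.14). Adamts15 stood at 17.3, 14.0, 16.1, 19.6 and 20.7 RPKM in antibody veins and 12.7, 29.0, 19.3, 16.8 and 13.6 RPKM in vehicle veins, where the spread enclosed the antibody values. Adamts5, an aggrecanase, stood at 8.76, 9.58, 8.55, 13.7 and 13.5 RPKM in antibody veins and 9.44, 10.1, 8.83, 10.1 and 10.1 RPKM in vehicle veins, so antibody replicates 4 and 5 were above the rest. Adamts4, the other main aggrecanase, averaged 9.32 ± 1.94 RPKM in antibody veins and 8.87 ± 1.28 RPKM in vehicle veins. Adamts8 averaged 1.33 ± 0.648 in antibody and 1.87 ± 0.649 RPKM in vehicle veins, and Adamts20, known in mice for pigment patterning, 0.291 ± 0.235 in antibody and 0.471 ± 0.262 RPKM in vehicle veins.

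All 3 enzymes that remove the amino-terminal propeptide of procollagens had negative log2 differences. Adamts2, the main procollagen I enzyme (chromosome 11, 50602084 to 50807573), stood at 39.5, 38.6, 33.5, 34.3 and 40.0 RPKM in antibody veins and 45.6, 50.6, 45.1, 35.7 and 45.8 RPKM in vehicle veins. The vehicle values were higher than each antibody value except in vehicle replicate 4. The means were 37.2 ± 3.03 in antibody and 44.5 ± 5.42 RPKM in vehicle veins, giving a log2 difference of -0.25 (standard error 0.11, 95% interval 0.712-fold to 0.989-fold, adjusted p by limma = 0.739, exact permutation p = 0.0317). Its unadjusted p stayed below 0.05 without antibody replicate 1 or 5 or vehicle replicate 4, and not without any other single library. It was the largest ADAMTS transcript, at 22.2% ± 0.71 of their summed level in antibody and 26.0% ± 2.08 in vehicle veins. Adamts14 stood at 3.71, 5.75, 3.49, 5.04 and 5.87 RPKM in antibody veins and 4.49, 6.15, 5.99, 3.87 and 6.74 RPKM in vehicle veins. Adamts3, which also takes part in processing the lymphatic growth factor VEGF-C, stood at 2.81, 3.0, 2.25, 2.23 and 3.15 RPKM in antibody veins and 2.91, 3.25, 3.34, 2.60 and 3.12 RPKM in vehicle veins. Both had overlapping values, with log2 differences of -0.18 (SE 0.18) and -0.16 (SE 0.11), and that of Adamts14 ran from -0.28 to -0.083 with single libraries left out.

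Adamts12 and Adamts7, which cleave the cartilage protein COMP, a matrix component also made by vascular smooth muscle, showed no detectable difference. Adamts12 stood at 21.4, 23.8, 20.5, 25.6 and 20.8 RPKM in antibody veins and 28.8, 26.3, 22.3, 21.1 and 19.2 RPKM in vehicle veins, giving a log2 difference of -0.06 (standard error 0.12, 95% interval 0.797-fold to 1.16-fold). Adamts7 stood at 5.05, 5.26, 6.35, 4.56 and 4.69 RPKM in antibody veins and 4.14, 4.96, 5.69, 5.18 and 3.91 RPKM in vehicle veins, giving a log2 difference of 0.11 (standard error 0.12, 95% interval 0.894-fold to 1.30-fold). Adamts13, the protease of von Willebrand factor made mainly in liver, totalled 80 reads, 32 of them in vehicle replicate 1, and was not tested.

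Among the remaining ADAMTS proteases, 3 had positive and 3 negative log2 differences. Adamts19 (chromosome 18, 58836764 to 59053678) had the largest negative difference of all members. It stood at 0.689, 1.02, 0.288, 1.42 and 0.700 RPKM in antibody veins and 1.77, 2.41, 1.99, 0.885 and 2.97 RPKM in vehicle veins, resting on 6 to 241 reads per library. The vehicle libraries other than replicate 4 lay above every antibody library. The means were 0.822 ± 0.421 in antibody and 2.0 ± 0.774 RPKM in vehicle veins, giving a log2 difference of -0.92 (standard error 0.28, 95% interval 0.346-fold to 0.810-fold, adjusted p by limma = 0.739, exact permutation p = 0.0238). It ran from -1.12 to -0.75 with single libraries left out, but its unadjusted p was 0.0528 by limma-voom and 0.0527 with quality weights.

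Adamts10, which acts on fibrillin microfibrils, stood at 11.7, 15.7, 12.7, 11.9 and 14.0 RPKM in antibody veins and 13.1, 13.2, 14.8, 13.5 and 13.4 RPKM in vehicle veins, the narrowest vehicle spread of any member at 5.0% of the mean. Adamts6, its closest relative, stood at 5.42, 5.55, 5.57, 4.60 and 3.93 RPKM in antibody veins and 4.47, 7.55, 4.53, 4.55 and 3.24 RPKM in vehicle veins. Adamts17 stood at 2.94, 2.22, 1.09, 2.34 and 2.19 RPKM in antibody veins and 3.0, 0.820, 2.58, 2.44 and 1.86 RPKM in vehicle veins. Antibody and vehicle values were interleaved for all 3. Adamts16 averaged 1.53 ± 0.774 RPKM in antibody veins and 1.42 ± 1.05 RPKM in vehicle veins, and Adamts18 0.635 ± 0.252 in antibody and 0.670 ± 0.191 RPKM in vehicle veins.

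The TIMPs differed more from each other in level than between groups. Timp2 (chromosome 11, 118301069 to 118355740) was the most abundant at 118, 118, 90.4, 123 and 127 RPKM in antibody veins and 154, 113, 155, 105 and 154 RPKM in vehicle veins. Vehicle replicates 1, 3 and 5 were above every antibody library, and vehicle replicates 2 and 4 lay among them. The means were 115 ± 14.3 in antibody and 136 ± 25.2 RPKM in vehicle veins, giving a log2 difference of -0.23 (standard error 0.15, 95% interval 0.671-fold to 1.08-fold, adjusted p by limma = 0.771). Timp1, an inducible inhibitor of most secreted MMPs (chromosome X, 20870166 to 20874735), stood at 76.3, 63.9, 80.9, 45.1 and 43.5 RPKM in antibody veins and 49.3, 94.2, 60.5, 65.6 and 41.6 RPKM in vehicle veins. The groups covered the same range, with means of 61.9 ± 17.3 in antibody and 62.3 ± 20.2 RPKM in vehicle veins and a 95% interval of 0.686-fold to 1.46-fold.

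Timp3, which is held in the matrix and also inhibits aggrecanases and ADAM17, stood at 17, 19.8, 14.7, 23.6 and 17.8 RPKM in antibody veins and 21.9, 26.0, 18.4, 22.0 and 15.5 RPKM in vehicle veins (-0.15 on the log2 scale, SE 0.16). Timp4, the inhibitor of heart and fat, stood at 0.302, 0.271, 0.316, 0.698 and 0.450 RPKM in antibody veins and 0.650, 2.70, 0.711, 0.526 and 0.394 RPKM in vehicle veins. Vehicle replicate 2 alone stood far above the rest, and the log2 difference of -0.57 (standard error 0.31, limma adjusted p = 0.75) was -0.25 without it. Timp1, Timp3 and Timp4 overlap the synapsin genes Syn1, Syn3 and Syn2, so reads of these pairs could be confused where strand was not used.

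Protease and inhibitor transcripts were also set side by side as sums. MMP transcripts summed to 754 ± 61.3 RPKM in antibody veins and 752 ± 69.7 RPKM in vehicle veins, ADAMTS transcripts to 167 ± 10.6 in antibody and 171 ± 17.7 RPKM in vehicle veins, and TIMP transcripts to 196 ± 10.4 in antibody and 220.2 ± 17.9 RPKM in vehicle veins (SD, n = 5 each). The ratio of the MMP to the TIMP sum ran from 3.50 to 4.01 in antibody libraries and from 3.03 to 3.63 in vehicle libraries, with means of 3.85 ± 0.208 in antibody and 3.42 ± 0.235 in vehicle libraries. All but 1 antibody library, replicate 4, lay above the vehicle range. The ratio of the ADAMTS to the TIMP sum ran from 0.810 to 0.940 in antibody libraries and from 0.742 to 0.851 in vehicle libraries, with overlap. These ratios are descriptions over chosen genes and were given no test. They rest on transcripts and not on enzyme activity. Mmp2, Mmp14 and Timp2 made up most of the MMP and TIMP sums. Mmp2 and Mmp14 averaged slightly lower in antibody than in vehicle libraries. Mmp3 (87.2 against 61.5 RPKM) and Mmp9 (26.5 against 13.7 RPKM) averaged higher, though 10 of the 17 tested MMPs had a negative log2 difference. Timp2 averaged 115 RPKM in antibody against 136 RPKM in vehicle libraries.

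**Figure D4:**
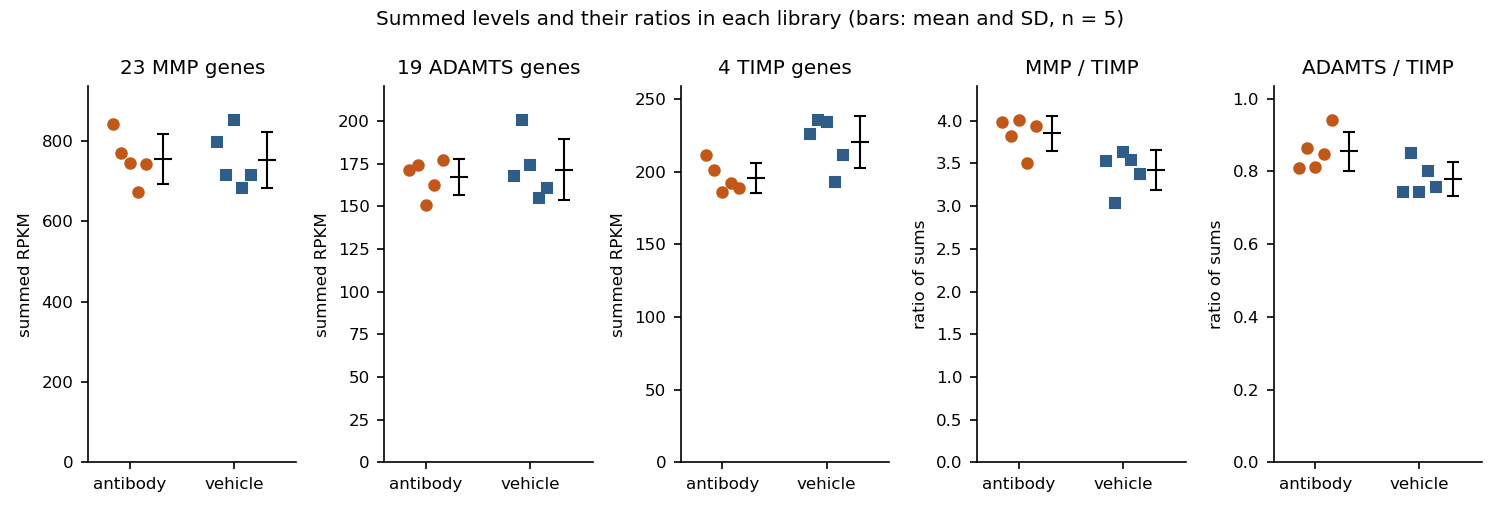
Summed TMM-scaled RPKM of the MMP, ADAMTS and TIMP genes and the ratios of the protease sums to the TIMP sum (y axes, from 0) in each library, antibody left and vehicle right, with mean and SD beside the points. The MMP to TIMP ratio averages 3.85 in antibody and 3.42 in vehicle libraries, and the ranges overlap.

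Some members were set against the markers of a cell type known to make them, as 7 relations over the 10 libraries on the log2 scale. None was set against the markers of another cell type, so these relations cannot single out a source. Neutrophil markers were uneven between libraries: the summed level of the 10 genes ran from 55.7 to 370.1 RPKM in antibody and from 23.8 to 143 RPKM in vehicle libraries, and 6 of 7 tested markers had a positive log2 difference. The exception was Ltf (log2 difference -0.23, SE 0.15). Most of the sum was S100a9 and S100a8, which averaged 98.8 and 53.8 RPKM in antibody and 34.6 and 19.6 RPKM in vehicle libraries. The mature-cell genes Csf3r and Cxcr2 were read in every library, while the further neutrophil genes Ly6g, Ngp and Camp were at 0 in at least 1 library each and not tested. Of these, Ngp and Camp averaged lower in antibody and Ly6g slightly higher. Mmp9 was high where the mean level of the tested neutrophil markers was high, in antibody replicates 1, 2 and 3 and vehicle replicate 4. It was also high in vehicle replicate 2, where that level was lowest. Over the 10 libraries its Pearson r was 0.73 (permutation p = 0.0194, adjusted over the 7 relations 0.0407) and Spearman's rho 0.76 (permutation p = 0.0147, adjusted 0.0393). Without the most extreme pair, antibody replicates 1 and 3, r was 0.54 over 8 libraries (permutation p = 0.164). Its adjusted p was above 0.05 when any single library other than vehicle replicate 2 was left out. For Mmp8, r was 0.62 (permutation p = 0.0577, adjusted 0.0674) and rho 0.59 (p = 0.0804, adjusted 0.113). For Mmp25, r was 0.69 (permutation p = 0.0169, adjusted 0.0407) and rho 0.54 (p = 0.115, adjusted 0.135). The adjusted p for Mmp25 was above 0.05 when any single library other than vehicle replicate 5 was left out. Without antibody replicates 1 and 3, r was 0.45 for Mmp8 (permutation p = 0.266) and 0.37 for Mmp25 (permutation p = 0.368).

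**Figure D5:**
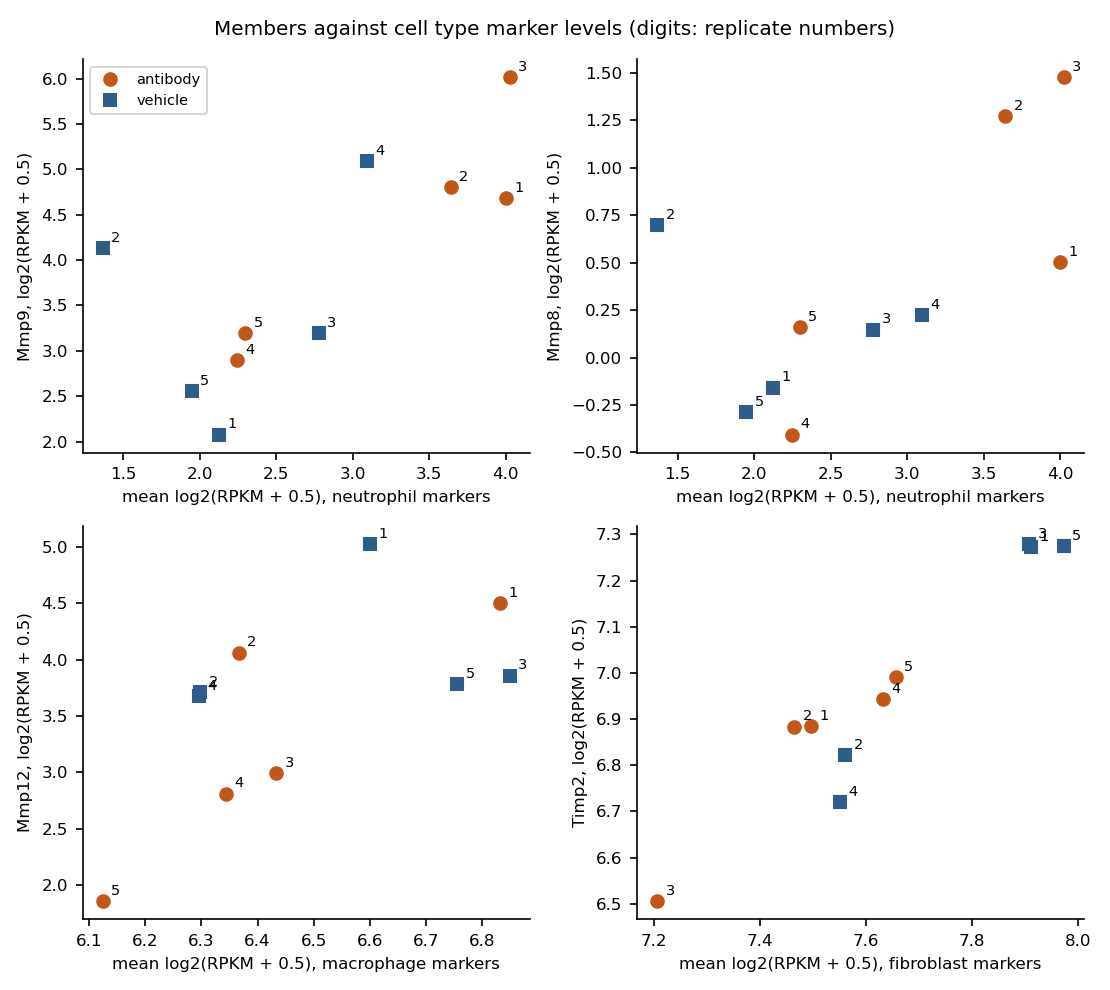
Level of Mmp9, Mmp8, Mmp12 and Timp2 in each library (y axes, log2(RPKM + 0.5)) against the mean log2 level of the markers of a cell type (x axes); circles are antibody and squares vehicle libraries, with replicate numbers. Timp2 follows the fibroblast markers closely (r = 0.96), while the other panels scatter more widely (r from 0.62 to 0.73).

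Timp2 had the closest relation of the 7. Against fibroblast markers its r was 0.96 (permutation p = 0.00021, adjusted over the 7 relations 0.00147) and its rho 0.87 (permutation p = 0.00217, adjusted 0.0152). It held without the 2 libraries farthest from the median, antibody replicate 3 and vehicle replicate 5 (r = 0.92, permutation p = 0.00653), and after each group was centred on its own mean (r = 0.97). Fibroblast markers summed to 4539 to 5230 RPKM in antibody and 4627 to 7308 RPKM in vehicle libraries, and 9 of 10 had a negative log2 difference. Mmp2 followed the same markers with r = 0.70 (permutation p = 0.0232, adjusted 0.0407) and rho = 0.75 (p = 0.0168, adjusted 0.0393), and r = 0.71 (permutation p = 0.053) without those libraries. Its adjusted p was above 0.05 when any single library other than antibody replicate 5 or vehicle replicate 5 was left out. For Mmp14 r was -0.06 (permutation p = 0.861, adjusted 0.861) and rho -0.26 (p = 0.470, adjusted 0.470), with opposite signs inside the groups.

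Mmp12 against macrophage markers gave r = 0.64 (permutation p = 0.044, adjusted 0.0616) and rho = 0.68 (p = 0.0343, adjusted 0.060), and r = 0.64 (permutation p = 0.0909) without antibody replicate 1 and vehicle replicate 3. The macrophage markers were all tested, and their summed level ran from 1368 to 2212 RPKM in antibody and from 1700 to 2491 RPKM in vehicle libraries. Of these 10 markers, 2 had a positive and 8 a negative log2 difference. Levels of a marker and of a member share the library and its scaling, and each group is too small for an r of its own. With both groups centred on their means, r over the 10 libraries was 0.52 for Mmp8, 0.67 for Mmp9, 0.60 for Mmp25, 0.59 for Mmp12, 0.79 for Mmp2 and -0.24 for Mmp14. The sign differed between the groups for Mmp8 as well. The part of cell makeup in the differences between groups was not tested.

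Other genes, either relatives of these proteases or listed as inhibitors and activators, were compared in the same fit. The lists held 36 genes that were measured and 34 that were tested, of which 0 passed at an adjusted p below 0.05 and 1 was higher and 2 lower in antibody veins at an unadjusted p below 0.05, beside 3.55% of all genes higher and 2.98% lower. Of the 20 tested genes outside the ADAMTS-like and ADAM families, which include procollagen-processing genes, 3 had positive and 17 negative log2 differences. Their median was -0.17, and 0 were called. Reck, a membrane-anchored MMP inhibitor, averaged 3.11 ± 0.548 RPKM in antibody veins and 3.96 ± 0.330 RPKM in vehicle veins (-0.32 on the log2 scale, SE 0.12, limma adjusted p = 0.739). Its antibody values, 2.20 to 3.55 RPKM, lay below the vehicle values, 3.57 to 4.42 RPKM, with no overlap, as for 1.11% of all genes. Tll1, a tolloid protease that removes the carboxy-terminal propeptide of procollagens, averaged 3.17 ± 0.527 in antibody and 2.41 ± 0.411 RPKM in vehicle veins. Spock2, a testican proteoglycan, averaged 1.54 ± 0.454 in antibody and 3.12 ± 2.32 RPKM in vehicle veins (-0.67 on the log2 scale, SE 0.33, limma adjusted p = 0.739). Vehicle replicate 2 alone, at 7.18 RPKM, stood far above the rest. Plat, tissue plasminogen activator, averaged 24.3 ± 4.83 in antibody and 29.8 ± 4.14 RPKM in vehicle veins.

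The ADAMTS-like genes encode relatives without a protease domain. Of the 6 tested, 5 had negative log2 differences. Adamtsl5 averaged 3.05 ± 0.926 RPKM in antibody veins and 4.43 ± 0.580 RPKM in vehicle veins (-0.51 on the log2 scale, SE 0.18, limma adjusted p = 0.739), Adamtsl4 6.25 ± 1.18 in antibody and 7.81 ± 1.27 RPKM in vehicle veins, Adamtsl3 4.07 ± 1.27 in antibody and 2.85 ± 0.852 RPKM in vehicle veins, and Adamtsl2 0.174 ± 0.0860 in antibody and 0.286 ± 0.109 RPKM in vehicle veins. Of the 8 ADAM proteases tested, 4 had positive and 4 negative log2 differences. Adam10, a shedding enzyme of the cell surface, averaged 24.7 ± 0.766 RPKM in antibody veins and 22.1 ± 1.87 RPKM in vehicle veins (0.16 on the log2 scale, SE 0.08, limma adjusted p = 0.739), and every antibody library, at 23.8 RPKM or more, exceeded the highest vehicle value of 23.7 RPKM, again a lack of overlap seen in 1.11% of all genes. Adam15 averaged 17.2 ± 1.47 RPKM in antibody veins and 20.9 ± 4.42 RPKM in vehicle veins, Adam17, the shedding enzyme of TNF, 14.4 ± 1.88 in antibody and 12.6 ± 1.46 RPKM in vehicle veins, and Adam9 45.3 ± 3.65 in antibody and 42.2 ± 5.16 RPKM in vehicle veins.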

How the data were processed

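RNA was taken from the outflow vein of 10 arteriovenous fistulas, 5 antibody and 5 vehicle, and made into libraries with a TruSeq V2 kit from 0.5 µg of total RNA, per the labels' protocols. The authors deposited RPKM values per gene, per the file headers, and the submitters' processing notes name build mm10. For the aligner, the read counter and strand use, the sources used here give nothing. Library totals were inferred from the RPKM values and gene lengths, as the totals that make the values whole reads. With the totals fitted in this way, each value came out as a whole read within 0.001 (100.0% of values). The reads of each library summed to its inferred total. All 10 RPKM columns were mapped to samples by name. The authors' mean, fold and p columns were not used.

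RPKM values were scaled by trimmed means of M values (30% trimmed on M, 5% on A) over the genes kept by the filter. A gene was kept with at least 0.513 CPM in 5 libraries and 15 reads in all. Groups were compared with limma (version 3.58.1, R 4.3.3) on log2(RPKM + 0.5), so that differences of low genes are understated, with Benjamini-Hochberg adjustment over 17859 genes and a threshold of 0.05. Exact two-sided permutation tests used all 252 splits, whose smallest possible p is 0.00794. The fit was also run on simulated data with known folds, and the folds that could be detected at these group sizes are not given here. limma-voom on the recovered reads, other scalings, filters and pseudocounts, a replicate block and leaving out libraries were alternatives. Intervals are 95% intervals. Permutation tests of correlations used 100000 resamples in Python 3.11.15.

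The members, gene lists and markers were chosen with earlier results of these data known. Named with all values were the TIMPs, the 3 most abundant tested members of each role, the 10 members of smallest p and 6 members with a known cell source or high level. In the lists of relatives, inhibitors and activators, the up to 4 genes of smallest p were named. Replicates of each group differed by more than sampling noise.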

Additional observations from a re-analysis of the deposited data

Results flagged for a closer look

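By Dixon's criterion on log2(RPKM + 0.5), 1 library stood apart from the other 4 in 4 of 68 groups of 5 libraries. Chance flags about 1 in 20 groups. On this scale Mmp13 and Mmp25 in antibody replicate 1 were not flagged, though both lay far above the rest in RPKM. Timp2 was lowest in antibody replicate 3, at 90.4 RPKM, where fibroblast markers were also at their lowest. Mmp12 was highest in vehicle replicate 1, at 32.1 RPKM. Timp4 was highest in vehicle replicate 2, at 2.70 RPKM. Adamts10 was highest in vehicle replicate 3, at 14.8 RPKM.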

How the results depend on the processing

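Over 20 other settings no member was called, and the smallest adjusted p of a member by limma was 0.549. Over all genes, 1 gene was called without the filter and 0 in each of the other settings. Members at an unadjusted p below 0.05 numbered 3 with limma-voom quality weights and 3 to 6 with single libraries left out. Same-numbered libraries showed low correlations of their deviations (from -0.10 to 0.35, 1 of 5 best with its own number). The reported fit therefore used no pairing, though such correlations cannot exclude it. The replicate block gave 6 members and 1252 genes below an unadjusted 0.05, and called 0. In that fit the unadjusted limma p was 0.0029 for Mmp3, 0.0036 for Mmp10 and 0.0319 for Adamts2. It was 0.0171 for Adamts9 and 0.0211 for Adamts19, both higher than in the reported fit, and Mmp12 was also below 0.05.

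Scaling by totals alone turned the median of the tested proteases to 0.032, and the log2 differences of Adamts10 to 0.037, Adamts12 to 0.025, Adamts15 to 0.079 and Mmp2 to 0.032. With limma-voom Adamts15 was 0.0059 and Timp1 -0.049, and with quality weights Adamts15 was 0.011 and Mmp14 0.0034. Without the 4 libraries highest in Kap, chosen after seeing the data, Adamts6 was -0.12 and Timp1 -0.16. With single libraries left out, Adamts6 ran from -0.044 to 0.23, Adamts12 from -0.13 to 0.017, Adamts15 from -0.12 to 0.18, Adamts17 from -0.19 to 0.21, Mmp2 from -0.13 to 0.0065, Mmp14 from -0.16 to 0.035 and Timp1 from -0.13 to 0.16. Of the other members with values in every library, Adamts2, Adamts9, Adamts19, Mmp3, Mmp10, Mmp17 and Mmp23 stayed within 1.5 times of their reported difference, and the rest did not for at least 1 library, among them Timp2 (-0.32 to -0.15), Timp3 (-0.25 to -0.070) and Adamts7 (0.041 to 0.17). The cause of these shifts was not tested.

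For marker relations, scaling by totals gave r = 0.73 for Mmp12, now past the threshold, and 0.58 for Mmp2, no longer past it. Without the Kap libraries (6 left), Mmp9 at 0.63, Mmp25 at 0.82, Mmp2 at 0.85 and Timp2 at 0.95 were not past it, with fewer libraries. With single libraries left out, r ran from 0.62 to 0.91 for Mmp9, 0.60 to 0.73 for Mmp25, 0.46 to 0.86 for Mmp8, 0.56 to 0.83 for Mmp2 and -0.23 to 0.052 for Mmp14. Depth limits the members under the filter and those with few reads.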
